A study of Mus musculus with 6 samples.

Results

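Unannotated 3′ extensions are poly(A) sites that lie beyond the last annotated base of a gene, where a longer transcript of that gene could end. They were taken here as all nuclear sites whose 3′ edge lay in no GENCODE M21 gene on the same strand and more than 1000 and at most 10000 bases downstream of the nearest same-strand protein-coding gene, the host. Of 32688 sites in the developing mouse retina, 1950 (5.97%) met this rule, and they belonged to 1505 hosts. The rule used position only and no measured value.

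The retinas came from C57BL/6J mice at 3 embryonic stages, E13.5, E15.5 and E18.5, and 3 stages after birth, P0, P6 and P21. Each stage had 1 sample, and the labels name no other strain, genotype or treatment. Poly(A) RNA was sheared and primed with oligo(dT), so that each sequenced tag marks a 3′ end (PA-seq), and the series follows alternative polyadenylation during retinal development. The libraries held 3286158 to 4656153 tags, in which 3 tags corresponded to 0.644 to 0.913 CPM, tags scaled to a fixed library total. Whether a sample pooled several animals was not given in the sources used here, and no value has a replicate.

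The deposited counts come in 2 columns a stage, which the labels do not explain and which were added here. For most hosts the columns held like levels, but some differed widely. Of the hosts with 20 tags or more, 22 of 1371 at E13.5, 31 of 1411 at E15.5, 11 of 1430 at E18.5 and 20 of 1402 at P0 had a CPM over 5 times higher in the first column than in the second, and at no stage was the second that much higher. The photoreceptor genes Rcvrn, Grk1, Gnat1, Cngb1, Pde6a and Rdh8 were among them at all 4 stages, and the 46 listed photoreceptor genes together stood at 4378 and 1763 CPM in the first and second column at E13.5, 8926 and 2378 at E15.5, 5854 and 3882 at E18.5 and 10012 and 4253 at P0. At P6 they were alike, 13955 and 14376, and at P21 they stood at 22286 and 19438.5. The hosts past the limit at P21 were others: 9 of 1439 were higher in the first column, among them Fgf15, Cenpa and Knl1. The 51 listed genes of the cell cycle and progenitors stood at 2719 and 1267 CPM there. Sag, a photoreceptor gene not past the limit at P21, also differed between its columns, as given below. The origin of these differences was not tested, and values by column are given below for some of the hosts they touch.

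The 3′ end of most mRNAs is made by cleavage a short distance after a poly(A) signal, a hexamer of which AATAAA is the most common form and ATTAAA the next. A gene with several such signals can end its mRNA early or late, which changes the length of the 3′ untranslated region and with it the binding sites for microRNAs and RNA-binding proteins. Nervous tissue is known for long 3′ untranslated regions, and gene models drawn largely from other tissues can stop short of them.

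The sequence just before an extension shows whether it carries the signal of a 3′ end. Extensions lie outside GENCODE transcripts of their own strand, so sequence could be read for 203 of the 1950, nearly always from the complement of a transcript on the other strand (GRCm38, the same assembly as mm10). The examples below are 30 bases each, 5′ to 3′ on the strand of the host, ending at the 3′ edge of the site. Capitals mark the AATAAA or ATTAAA nearest to the edge. They were chosen as abundant extensions, as extensions that end on a RefSeq model, and as hosts whose share changed or that serve photoreceptors, some beside the host's own most used site. Every example printed holds AATAAA or ATTAAA, so the examples do not show the readable extensions without either. Those of Rab11a, with 1789 tags, and of Mpp6 at chr6:50201200-50201229, with 525 tags, held neither in their 30 bases and are not printed.
Map3k3 extension, chr11:106156622-106156651, plus strand: attacttacAATAAAagggatcatttatat
Kif3a extension, chr11:53602996-53603025, plus strand: tgtttATTAAAgcattgatgttaaaactct
Kif3a own site, chr11:53601074-53601103, plus strand: agttaaaatAATAAAaagagtgctgtccca
Klhdc2 extension, chr12:69311754-69311783, plus strand: tcaagaagttcAATAAAatgtagaacaata
Klhdc2 own site, chr12:69310436-69310465, plus strand: taaagtttacAATAAAtgtatttaacacca
Cdk7 extension, chr13:100697027-100697056, minus strand: actatgctAATAAAtttttaaaacaccttg
Cdk7 own site, chr13:100703314-100703343, minus strand: ggttatttttATTAAAtgtattttacaata
Jmjd4 extension, chr11:59462942-59462971, plus strand: cacatattcacATTAAAaaggtcatttcca
Sarm1 extension, chr11:78470482-78470511, minus strand: gctATTAAAtacatggctgttaactgttaa
Mpp6 extension, chr6:50203089-50203118, plus strand: gagactacttATTAAAtgtgttctcttacc
Mpp6 own site, chr6:50198348-50198377, plus strand: caacagataAATAAAactttaaaacagtga
Opn1sw extension, chr6:29374528-29374557, minus strand: agagctgtaaaAATAAAttacttttgaaga
Rcvrn extension, chr11:67709183-67709212, plus strand: tgaaccctatttAATAAAtgatttttcttc
Rcvrn own site, chr11:67703304-67703333, plus strand: agcaggttccAATAAAtgcaaaaggagttt

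Both hexamers were searched on the strand of the site in the 40 bases before its edge, and a window with both was counted under AATAAA. Of the 203 readable extensions, 108 (53.2%) held AATAAA, 43 (21.2%) held only ATTAAA, 39 (19.2%) held only another single-base variant of AATAAA (17 were searched), and 13 (6.40%) held none. In windows of the same length 200 bases upstream, read for 284 extensions, AATAAA stood in 2.11%, ATTAAA in 1.41% and none of the hexamers in 83.5%. Of 13452 sites within 25 bases of an annotated transcript end, 68.1% held AATAAA and 3.72% none, while of 9738 sites elsewhere in genes 41.1% held AATAAA and 15.0% none. The share of extensions with a common hexamer thus lay between those of annotated ends and of other sites in genes. Sequence rich in A just after a site, on which oligo(dT) can prime without a poly(A) tail, followed 13 of 219 readable extensions (5.94%), against 4.41% of annotated ends and 7.80% of other sites in genes. A match is a description of the letters in the window, and the readable extensions are those covered by another transcript or promoter, so they need not represent the rest.

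**Figure D1:**
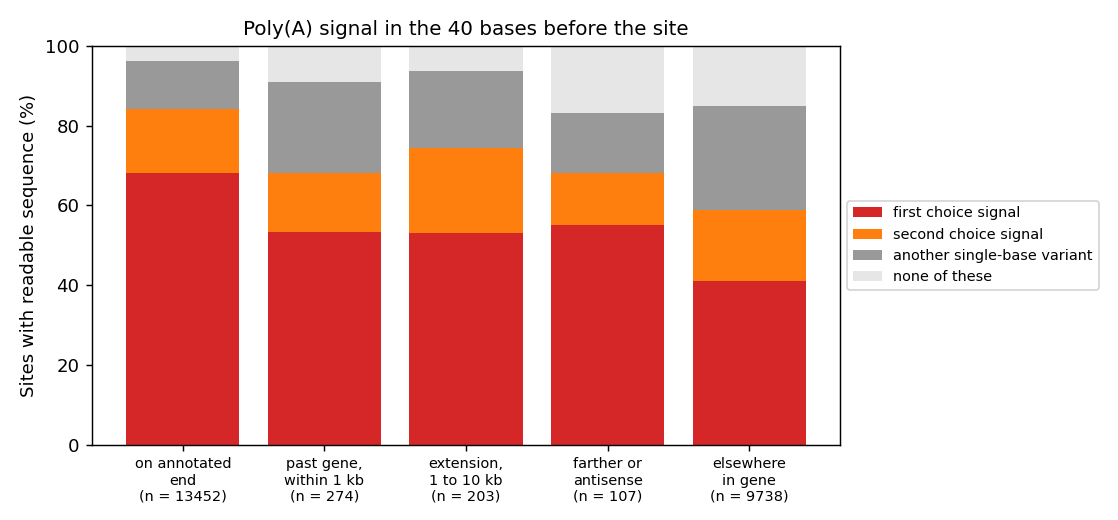
Percentage of sites with readable sequence (y axis) whose 40 bases before the edge held AATAAA (first choice), only ATTAAA (second choice), only another single-base variant, or none, by location of the site (x axis, with the number read). Of the extensions 53.2% held the first choice and 6.40% none, against 68.1% and 3.72% on annotated ends.

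Most hosts had a single extension. There was 1 extension site in 1183 hosts, 2 in 235 and 3 or more in 87, up to 9 in Mpp6, which encodes a membrane-associated scaffold protein. Extensions lay a median of 3065 bases past the host (quartiles 1812 and 4853.5). They were weak sites, with a median of 95 tags over all libraries (range 41 to 8031) and a median enrichment score, as deposited, of 6.36, against 18.8 for sites inside genes. Of 13048 coding genes with a site of their own, inside the gene or within 1000 bases past it, 10.5% also had an extension.

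Position does not by itself show that an extension belongs to its host. Another same-strand gene, of any kind, lay between the host and 124 of the sites, the start of the next same-strand coding gene was nearer than the host's end for 131, and 642 lay inside a gene on the other strand. At the near limit, sites past Trmo and Psmc4 (42 and 147 tags), on the first base beyond 1000, were members, and sites just short of it past Pdf and Rbm3 (67 and 317 tags) were not. At the far limit, sites 9981 bases past Chmp4b and 9989 past Aprt (47 and 71 tags) were members and sites 10021 bases past Rilpl1 and 10039 past Arfgap2 (288 and 134 tags) were not. MicroRNA hairpins of RefSeq stood between host and extension for 5 sites, those past Mon2 (Mirlet7i), Spred1 (Mir674, 2 sites), Gm19426 (Mir130a) and Gm340 (Mir8091), named for this after they were seen.

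Many of the most abundant extensions are already the end of the gene in a second annotation. RefSeq models (GRCm38.p6) could be matched for 1935 sites in 1495 hosts, and 432 of these sites (22.3%) lay inside the RefSeq span of their host. As many as 303 (15.7%) lay within 25 bases of the RefSeq end. Sites at a RefSeq end had a median of 256 tags, those inside the span at any point 167.5 and those beyond it 85. Among the 100 extensions with the most tags, 75 lay inside the RefSeq host and 66 within 25 bases of its end. The word unannotated therefore holds for GENCODE M21 but not, for these sites, for RefSeq.

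**Figure D2:**
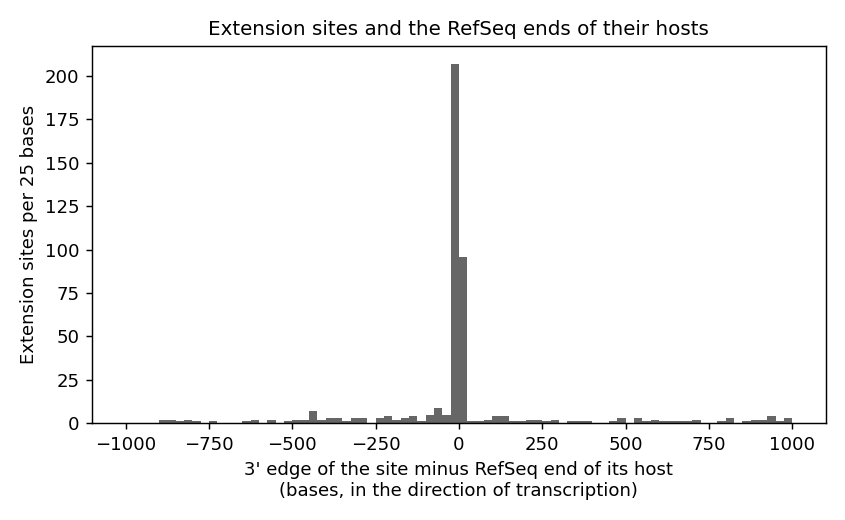
Number of extension sites per 25 bases (y axis) by the distance of the 3′ edge from the RefSeq end of the host, in bases in the direction of transcription (x axis, within 1000 bases on either side). The central peak holds the 303 sites within 25 bases of a RefSeq end.

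For some abundant hosts the extension was the main or the only end seen. Vash1, which encodes vasohibin 1, an inhibitor of vessel growth and tubulin carboxypeptidase, had 1199, 1397, 1618, 1387, 1623 and 807 tags from E13.5 to P21 at chr12:86695643-86695684, 3593 bases past its GENCODE end, and no site of its own in the table. It was lowest at P21, and the site lay inside the RefSeq gene. In all, 133 hosts had no site of their own, so no share could be followed in them.

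Kif3a, a kinesin motor of intraflagellar transport that photoreceptors need for their outer segments, had 614, 893, 996, 897, 782 and 698 extension tags at its pair of extensions beside 17, 18, 30, 6, 0 and 6 at its own site. The share of extension tags among all tags of the host was 97.3% at E13.5 (95% Wilson interval 95.7 to 98.3) and 99.1% at P21 (98.2 to 99.6). The intervals overlap, and the change with stage did not pass the test described below. Intervals cover counting error only and treat tags as independent, so PCR copies of the same molecule would make them too narrow.

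Other hosts with a high share did not pass either. Hipk2, a nuclear kinase, kept 91.3% to 94.4% of its tags at 2 extensions in every library. Nkain1, which interacts with the sodium pump, had 80.3% of its tags at its extensions at E13.5 and 87.1% at P21, although its extension tags went from 1255 to 149. Stk24, a kinase of the STE20 family, had 66.0% at E13.5 (62.7 to 69.1) and 78.8% at P21 (75.3 to 81.9), intervals that do not overlap (adjusted p = 0.0898). Faxc, Nutf2, a nuclear transport factor, and Atm, the DNA damage kinase, had shares of 92.3% to 99.2% in all libraries, with the start of the next coding gene nearer than the host for Nutf2.

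Over all hosts the share was lower: a median of 8.05% (quartiles 3.60% and 21.8%) over the libraries together in the 1369 hosts with enough tags to test, and above 50% in 135 of them. It was higher at later stages. From E13.5 to P21 the median shares were 5.26%, 6.38%, 6.85%, 8.62%, 8.54% and 10.4%. In 1280 hosts with 20 tags or more in every library, the share was higher at P21 than at E13.5 in 1030 and lower in 250. Extension sites together took 1.36%, 1.55%, 1.62%, 1.72%, 1.81% and 2.26% of all tags, so that each later library was higher. Sites outside genes and farther away or without a coding gene upstream also took more, 0.713% at E13.5 and 1.48% at P21, while sites inside genes took 89.9% and 87.4%.

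**Figure D3:**
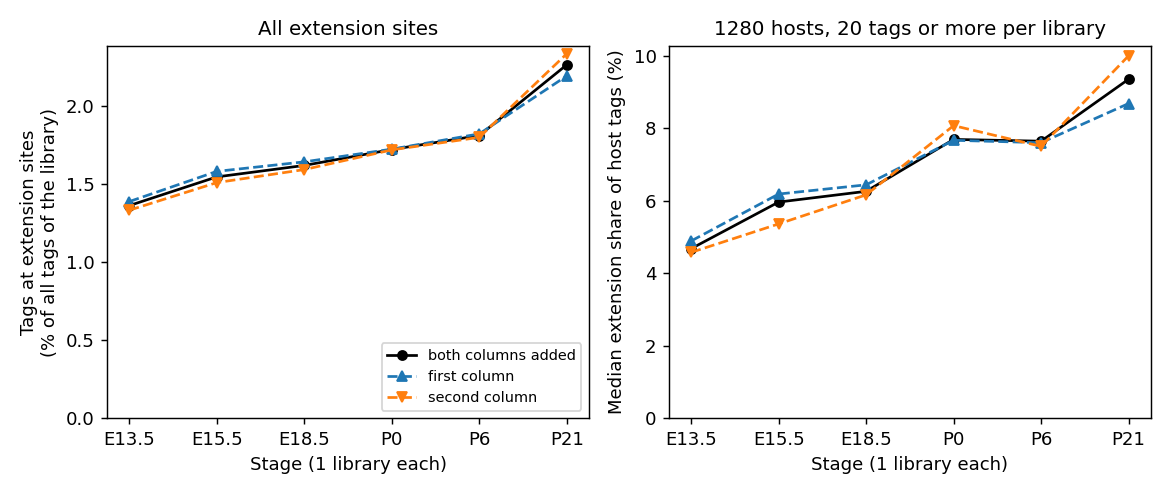
Left, tags at extension sites as a percentage of all tags of a library (y axis) by stage (x axis, 1 library each). Right, median share of host tags at extensions over 1280 hosts, for the sum of the pair of deposited columns of a stage and for each column alone. On the left the sum runs from 1.36% at E13.5 to 2.26% at P21, and on the right from 4.68% to 9.35%.

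Whether the share followed stage was tested in each host with edgeR on extension tags against own tags, as a linear trend over stage order, and the change is given as the fitted log2 change of the ratio of extension to own tags from E13.5 to P21. Of the 1369 hosts tested, 204 rose and 11 fell at an adjusted p of 0.05, and 1154 did not pass; the other 136 hosts had too few tags. Over all 22983 features tested the same way, own sites included, 3.12% rose and 2.00% fell. The median fitted change was 0.88 for extensions, with 1093 hosts (79.8%) above 0, against -0.0045 over all features. The test had 4 residual degrees of freedom, and the number of rising hosts was 22 when the E13.5 library was left out, 109 for E15.5, 122 for P6 and 7 for P21. The median stayed between 0.81 and 0.95 when any 1 library was left out.

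Part of this direction was shared with the 3′-most own sites of genes. Their median fitted change against the other own sites was 0.25 (6983 features, 3.94% rose), and that of the other own sites was -0.18 (14631 features). In the 910 hosts of extensions with several own sites, the 3′-most own site had a median of 0.20, with 23 that rose and 14 that fell. Extensions had larger changes than either group also among features with few tags: the median was 0.99 for extensions with under 100 tags, 0.18 for 3′-most and -0.21 for other own sites of that size.

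**Figure D4:**
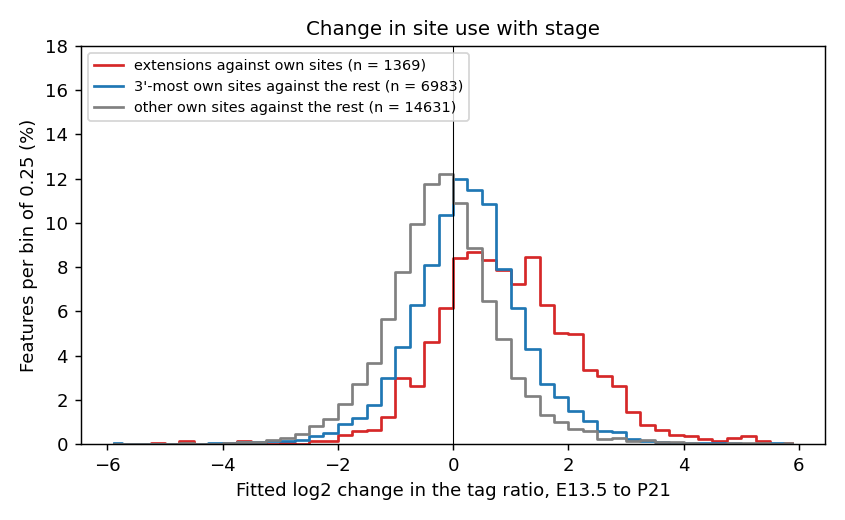
Distribution of the fitted log2 change of the tag ratio from E13.5 to P21 (x axis) as the percentage of features per bin of 0.25 (y axis), for extensions against the own sites of their host, for 3′-most own sites and for other own sites against the rest of their gene; values beyond 6 are not drawn. The extensions are shifted to the right, with a median of 0.88 against 0.25 and -0.18.

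The change was larger for extensions farther from the host. By the distance of a host's nearest extension, 49 of 490 hosts rose at up to 2000 bases (median change 0.65), 15.6% of 622 beyond that up to 5000 bases (median 0.92) and 22.6% of 257 beyond 5000 bases (median 1.36). Hosts whose extension lay inside the RefSeq gene rose in 32 of 273 cases with none that fell in edgeR or diffSpliceDGE, and 3 that fell at an unadjusted p of 0.05 (median 0.68), and the other hosts in 172 of 1096 with 11 that fell (median 0.94). These groups were set by position, and the differences between them were not tested. The median was 0.99 in 467 hosts with a gene on the other strand at an extension and 0.81 in the 902 without.

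Taken as single sites, without the host, extensions also became more abundant. Of 1940 sites tested, 446 (23.0%) rose in abundance and 46 (2.37%) fell, with a median fitted log2 change of 0.83. Over all 32592 nuclear sites tested, 15.1% rose and 8.96% fell, with a median of 0.01. Without the P21 library 106 extensions rose, and without E13.5 205. By distance from the host, the median was 0.48 up to 2000 bases, 0.80 beyond that up to 5000 and 1.37 beyond 5000. Sites farther from coding genes or without one upstream had a median of 1.06, above that of all extensions.

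In the 204 rising hosts the median share went from 2.31% at E13.5 through 3.99%, 5.07%, 7.27% and 9.72% to 14.8% at P21. Extension CPM was higher at P21 than at E13.5 in 199 of them, and own CPM was lower in 141. The hosts were selected on the rise of this ratio, so the shares and both counts partly follow from the selection. The fitted changes ran from 1.35 to 8.39, and 7 of these hosts had no extension tag at E13.5. Their share at that stage is known only up to a limit, and their fitted change is a slope over all libraries. On the first columns alone 101 of the 204 passed and on the second alone 142; the columns belong to 1 sample and were used in the sum, so this is no replication.

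The largest rises were in hosts whose extension was close to absent at first. Trp53, which encodes the tumour suppressor p53, had 1, 5, 1, 4, 5 and 65 tags at an extension 2357 bases past its end, beside 319, 235, 256, 331, 262 and 91 own tags. P21 stands alone, with a share of 41.7% (34.2 to 49.5) against 0.312% to 2.08% in the other libraries. The fitted change was 8.39 ± 1.65 (SE, 6 libraries; adjusted p = 0.0134) and did not pass without the E13.5 library, and without P21 the host had too few tags to test.

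Dffb, the nuclease that cuts DNA in apoptosis, had 2, 3, 4, 3, 51 and 57 tags at an extension 9932 bases past its end, beside 52, 45, 68, 71, 60 and 31 own tags. Here P6 and P21 were both high, at 45.9% and 64.8%, and the first 4 libraries lay at or below 6.25%. The fitted change was 6.84 ± 1.15 (adjusted p = 0.00625), lost without P21. Mios, a subunit of the GATOR2 complex that signals amino acids to mTORC1, had 3, 5, 5, 9, 21 and 63 extension tags, and its share went from 0.850% at E13.5 to 24.0% at P21 (6.01 ± 0.86, adjusted p = 0.00320, lost without P21).

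The other 5 of the 8 hosts with the largest rise that had 20 tags or more in every library kept low shares. Neo1, a receptor for netrins and repulsive guidance molecules, had 1, 4, 2, 1, 3 and 44 extension tags and a share of 9.71% at P21. Pld3, a lysosomal nuclease, had 0, 1, 2, 6, 6 and 54 and reached 5.19%, and its 0 tags at E13.5 allow a share of up to 0.621%. Prkab1, a subunit of AMP-activated kinase, reached 3.71%, Ubald1 5.74% and Ndufs3, a subunit of respiratory complex I, 4.23%. Their fitted changes were 6.27, 6.40, 6.11, 5.45 and 5.39. Pld3, Prkab1 and Ndufs3 had 0 extension tags at E13.5, so their shares there are known only up to a limit. Without E13.5 the calls of Neo1, Pld3, Prkab1 and Ubald1 were lost, and without P21 that of Ndufs3; the first 4 of these had too few tags to test without P21.

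Falling hosts were few, and in 9 of the 11 the own CPM was higher at P21 than at E13.5 while in 9 the extension CPM was lower. They were selected on the fall of the ratio, so these counts too partly follow from the selection. Psd, an exchange factor for the GTPase ARF6 found at synapses, had 37, 48, 68, 46, 30 and 17 extension tags beside 126, 237, 356, 362, 647 and 874 own tags. Its share was lower at each later stage, from 22.7% (16.9 to 29.7) to 1.91% (1.19 to 3.03), with a fitted change of -3.70 ± 0.53 (adjusted p = 0.00326, lost without P21). Another gene lay between Psd and this site, 8497 bases past its end.

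Gucy2e, the guanylate cyclase that restores cGMP in photoreceptors, had 26, 36, 40, 33, 41 and 83 tags at an extension 6933 bases past its end, beside 25, 125, 63, 114, 593 and 1153 own tags. Its early own tags lay mostly in the first column, with 24 and 1 in the first and second at E13.5, 123 and 2 at E15.5 and 106 and 8 at P0, while its extension tags were divided evenly. Both counts were highest at P21, and the share went from 51.0% (37.7 to 64.1) to 6.72% (5.45 to 8.25). The fitted change was -3.76 ± 0.67 (adjusted p = 0.00836) and was lost without E13.5 and without P21. By column the share at E13.5 was 36.8% and 92.3% and at P21 6.64% and 6.78%, with fitted changes of -2.62 and -8.59, and the fall passed on both. Nim1k, a kinase of the AMPK-related family, went from 30.4% to 1.46% with 14, 29, 35, 8, 8 and 8 extension tags and own tags that reached 540 at P21 (-5.12 ± 1.01, adjusted p = 0.0134, lost without P21). The sequence before this extension could be read and held none of the hexamers searched. The site lies inside Hmgcs1, a gene on the other strand.

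Vamp1, a synaptic vesicle SNARE, had 7 to 20 extension tags in every library and 14, 47, 47, 73, 105 and 510 own tags (-3.72 ± 0.80). This site lies 1508 bases past the GENCODE gene but 25166 past the RefSeq end, and both own sites lie far upstream of it, near that RefSeq end. Six3, a homeobox factor of the eye field, had 21, 18, 10, 5, 2 and 1 extension tags and over 1000 own tags in each library, so that its share was 1.17% or less (-3.48 ± 0.64). Hspa1b, an inducible heat shock protein with 4 genes between it and its extension, Vps4a, an ATPase of the ESCRT pathway, and Wdr66 had fitted changes of -4.68, -2.94 and -2.35. The calls of Vamp1, Six3, Hspa1b and Wdr66 were lost without E13.5, and those and that of Vps4a without P21; without E15.5 or P6 that of Wdr66 was lost too. Fam71f2, Cd164 and Pik3r2 complete the 11, and were named after their values were seen; each was lost without E13.5 and without P21, Fam71f2 and Pik3r2 also without P6, Pik3r2 without E15.5, and Cd164 when E15.5, E18.5 or P6 was left out.

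**Figure D5:**
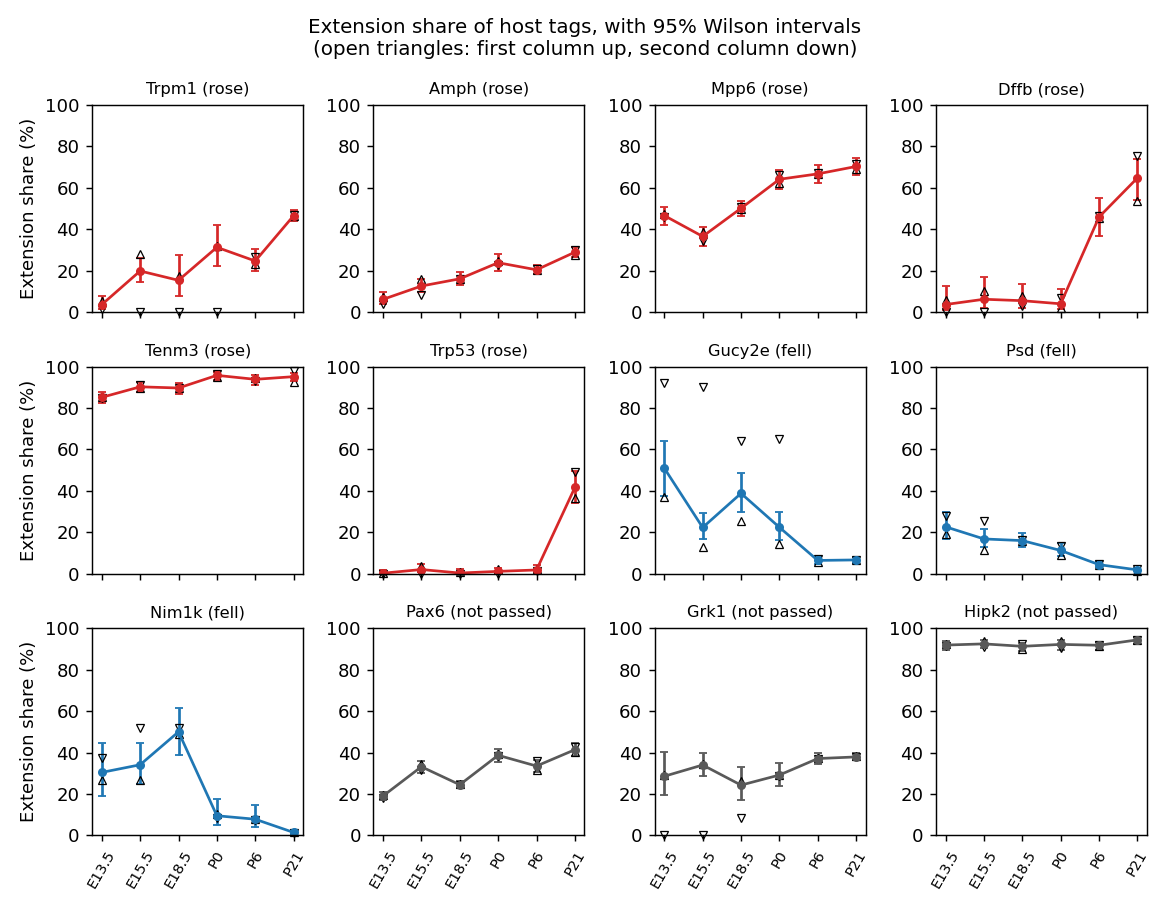
Extension share of host tags in percent (y axis) by stage (x axis, 1 library each) for 12 named hosts, with 95% Wilson intervals for counting error, for the sum of the columns (filled points) and for the first (upward triangles) and second column (downward triangles) alone; red rose, blue fell and grey did not pass the test. Dffb reaches 64.8% and Trp53 41.7% at P21, Gucy2e goes from 51.0% to 6.72%, and Hipk2 stays between 91.3% and 94.4%.

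Photoreceptor genes often carried an extension. Of 46 listed genes of phototransduction and photoreceptor identity that had a site, 18 (39.1%) were hosts, against 10.5% of coding genes; abundant genes have more tags with which weak sites can be seen, and this was not adjusted for. Of the 17 tested, Sag rose, Gucy2e fell and 15 did not pass (median change 0.80). Over all 1369 tested hosts, 14.9% rose and 0.804% fell, which is the background for the calls in the lists below as well. Sag, the rod arrestin that ends the signal of rhodopsin, was named for its call. It had 2, 6, 1, 6, 104 and 145 tags at an extension 1306 bases past its end, beside 276, 455, 413, 514, 1555 and 1265 own tags (5.05 ± 0.84, adjusted p = 0.00601, lost without P21). Its share was at most 1.30% up to P0, 6.27% at P6 and 10.3% at P21. None of its extension tags before P6 came from a second column, and among the P21 tags the own ones were 1101 and 164 in the first and second column, which gives shares of 5.90% and 31.7%.

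Rcvrn, which encodes recoverin, the calcium sensor of photoreceptors, had 6 extensions from 1155 to 7255 bases past its end. Together they had 15, 52, 21, 58, 209 and 1076 tags beside 213, 749, 341, 644, 2397 and 5730 at its own site. Up to P0 nearly all of these came from the first columns, whose own tags were 208, 742, 294 and 614 against 5, 7, 47 and 30 in the second, and whose extension tags were 15, 52, 19 and 49 against 0, 0, 2 and 9. The share was 5.80% to 8.26% up to P6 and 15.8% (15.0 to 16.7) at P21, and the trend did not pass (1.40 ± 0.45, adjusted p = 0.0887). The farthest site, at chr11:67710571-67710588, held 613 of the tags and the one whose sequence is printed above 162. All 6 lie inside Glp2r, a gene on the other strand.

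Grk1, rhodopsin kinase, had 20, 101, 26, 77, 442 and 1237 tags at 3 extensions and a share between 24.3% and 37.9%; the farthest of them lies nearer to the next coding gene. Up to P0 this share rests on the first columns, which held 20, 101, 25 and 73 of the extension tags; the second held 0, 0, 1 and 4 beside 2, 4, 11 and 10 own tags. Its extension tags were highest at P21 together with its own tags, and the change in the ratio was 0.59 ± 0.40 (adjusted p = 0.431). Crx, a homeobox factor of photoreceptors, had shares of 8.73%, 9.17%, 10.5%, 14.0%, 16.0% and 7.89%, highest at P6 and lowest at P21, and a linear trend cannot describe such a course. Opn1sw, the short-wave cone opsin, was at 4.85% to 8.51% up to P6 and 12.2% at P21 and did not pass. It and Gnat1 were chosen after their values were seen. The CPM of Opn1sw was over 5 times higher in the first column than in the second at E13.5 and E15.5, and that of Gnat1 at each stage up to P0. Their shares at those stages thus rest mainly on the first column. Gnat1, rod transducin, had 5, 41, 12, 29, 13 and 429 extension tags, and its share of 28.8% at P21 stood above the 1.27% to 4.65% of the other libraries (adjusted p = 0.0887). On each column alone its rise did pass, at an adjusted p of 0.0301 and 0.0389, with 5 and 0 extension tags at E13.5 in the first and second.

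Among 87 measured ion channels and receptors, 13 were hosts (14.9%, against 10.5% of coding genes). Of the 8 tested only Trpm1 passed (median 0.80). Trpm1, the channel through which ON bipolar cells respond to light, had 4 extensions, the farthest 8399 bases past its end. Together they had 6, 36, 8, 26, 63 and 617 tags beside 158, 145, 44, 57, 192 and 708 own tags. The share was lowest at E13.5, 3.66% (1.69 to 7.75), and highest at P21, 46.6% (43.9 to 49.3), with a fitted change of 3.11 ± 0.61 (adjusted p = 0.0134), lost without E13.5 and without P21. At E15.5, E18.5 and P0 all its extension tags, 36, 8 and 26, lay in the first column, for shares of 27.9%, 17.4% and 32.1% there. The second column had 52, 6 and 2 own tags at these stages, so its share of 0% at E18.5 and P0 rests on few tags. The fitted change was 2.34 on the first columns and 7.01 on the second, and passed on both. At E13.5 the own tags of Trpm1 lay largely at sites far upstream, 61 at one and 38 at another, and 20 at the site near the gene's end, which had 586 at P21. Kcnh5, a potassium channel, and Gabrb2, a GABA receptor subunit, had no site of their own, and their extensions had 18 and 22 tags at E13.5 and 281 and 160 at P21.

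Of 56 measured genes of synapses and transmitter release, 9 were hosts (16.1%, against 10.5% of coding genes). Of the 8 tested, Amph rose, Vamp1 fell and 6 did not pass (median 0.25). Amph, amphiphysin of synaptic vesicle recycling, had 17, 60, 87, 102, 259 and 393 tags at 3 extensions beside 257, 415, 453, 325, 1007 and 964 own tags. Its share went from 6.20% (3.91 to 9.71) to 29.0% (26.6 to 31.4) with only P6 below the stage before it, and the fitted change was 2.15 ± 0.42 (adjusted p = 0.0133), lost without E13.5 and without P21. The nearest of the 3, at the RefSeq end, had 14 tags at E13.5 and 235 at P21, the middle one 2 and 118 and the farthest 1 and 40. Shank2, a scaffold of excitatory synapses, had a share of 19.7% at E13.5 and 44.5% at P21 (1.36 ± 0.46, adjusted p = 0.106), and Cplx4, a complexin of ribbon synapses, 29.2% and 37.7% (0.36 ± 0.44). For Cplx4 the E13.5 value is that of the first column, which held 7 extension and 16 own tags against 0 and 1 in the second.

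Of 95 measured genes of axon guidance and adhesion, 13 were hosts (13.7%, against 10.5% of coding genes). Of the 12 tested Neo1 and Tenm3 rose and 10 did not pass (median 0.43). Tenm3, a teneurin that guides the wiring of retinal ganglion cells, had most of its tags at its extensions throughout. It had 591, 555, 512, 453, 412 and 451 extension tags beside 103, 60, 59, 20, 27 and 23 own tags. The share rose from 85.2% (82.3 to 87.6) to 95.1% (92.8 to 96.7), with a fitted change of 1.81 ± 0.45 (adjusted p = 0.0358), lost when E13.5, E15.5, P6 or P21 was left out. Nrcam, an adhesion molecule of axons, went from 30.4% to 51.0% without passing (adjusted p = 0.0612), and Slit1, a repulsive guidance cue, was at 55.2% and 67.6%.

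Of 76 measured retinal transcription factors, 8 were hosts (10.5%, as over all coding genes). Of the 7 tested Six3 fell and 6 did not pass (median 0.41). Pax6, a regulator of eye development and of amacrine and ganglion cells, had 296, 330, 518, 361, 336 and 430 tags at 4 extensions beside 1257, 665, 1597, 572, 667 and 609 own tags. Its share was 19.1%, 33.2%, 24.5%, 38.7%, 33.5% and 41.4%, low at E13.5 and E18.5, and the trend did not pass (1.28 ± 0.40, adjusted p = 0.0821). The first Pax6 extension lies 1 base past the RefSeq end. Tfap2a, a factor of amacrine cells, was at 22.9% at E13.5 and 37.5% at P6 and P21 (adjusted p = 0.0710). Onecut1, a factor of horizontal and ganglion cells, had only its extensions, with 363, 336, 213, 135, 128 and 98 tags.

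Among the lists with hosts, RNA-binding proteins had the highest median, 1.48 over 9 tested of 10 hosts among 65 measured genes. These hosts were 15.4% of the list, against 10.5% of coding genes. Over all 1369 tested hosts the median was 0.88 (quartiles 0.15 and 1.73) and 14.9% rose, and differences between lists were not tested. Of the 9, 2 rose and 7 did not pass. The 2 were Hnrnpa2b1 and Hnrnpu, nuclear ribonucleoproteins of splicing and RNA transport, named for their calls. Hnrnpa2b1 had 5, 11, 15, 15, 24 and 49 extension tags, a share of 0.614% at E13.5 and 7.45% at P21 (3.29 ± 0.51, adjusted p = 0.00478, lost without E13.5 and without P21), and Hnrnpu, with 1 gene between it and its extension, shares of 0.0680% and 0.855% (2.55 ± 0.67, adjusted p = 0.0436, lost when E13.5, E18.5, P6 or P21 was left out). Celf3, a neuronal splicing regulator, was at 5.38% to 5.99% up to E18.5 and at 34.9%, 26.6% and 19.9% from P0 on, a step rather than a line (2.93 ± 0.81, adjusted p = 0.0526). Cpeb3, a regulator of translation, was at 69.7% to 84.2% and Ago2, the slicer of RNA interference, at 2.15% to 11.8%, and neither passed.

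Of the genes of cleavage and polyadenylation themselves, 4 of 23 were hosts (Wdr33, Papolg, Cpsf6 and Cpsf1), or 17.4% against 10.5% of coding genes. None of the 4 passed in edgeR, at an unadjusted p of 0.05 or with diffSpliceDGE, edgeR's test of a feature against the whole gene (median 0.44). Wdr33, the subunit that binds the poly(A) signal, was at 8.54% to 13.2%. Cpsf6, a subunit that favours distal sites, was at 0.601% to 1.68%. Papolg, a poly(A) polymerase, had shares of 28.6%, 65.5%, 10.9%, 58.1%, 36.0% and 69.6% on 14 to 48 extension tags a library, high and low by turns, with a fitted change of 1.74 ± 1.17. Of 51 genes of the cell cycle and progenitors, 4 were hosts (Fgf15, Rrm1, Aurkb and Fzd5), or 7.84% against the same 10.5%. None passed in edgeR or diffSpliceDGE, though 1, Rrm1, did at an unadjusted p of 0.05 (median 0.64). Fgf15, a growth factor of progenitors, had 33, 49, 29, 3, 4 and 2 extension tags as its own tags went from 1779 to 209. Of those 209 at P21, 207 lay in the first column and 2 in the second, and the 4 and 2 extension tags at P6 and P21 all in the first.

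The shares of 5 hosts whose sequences are printed above follow; these hosts were chosen for their sequence, with their values known. Map3k3, a kinase of MAP kinase cascades, had 87.7% to 92.6% of its tags at an extension 5 bases short of the RefSeq end, and Cdk7, the kinase of the transcription factor TFIIH, had 67.6% to 79.2% at 2 extensions. Klhdc2, a substrate receptor of a ubiquitin ligase, was at 28.6% at E13.5 and 37.7% at P21, with an extension that RefSeq does not include. None of these 3 passed the test.

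Jmjd4, a hydroxylase of translation termination, had 81, 135, 174, 134, 171 and 139 tags at 4 extensions beside 176, 157, 190, 100, 111 and 75 own tags. Its share was higher at each stage than at the one before, from 31.5% to 65.0% (1.87 ± 0.39, adjusted p = 0.0172, lost without E13.5, P6 or P21), and its farthest extension lies exactly on the RefSeq end. Sarm1, the NAD hydrolase that drives axon degeneration, had 90, 178, 211, 194, 290 and 640 extension tags and shares of 38.6% at E13.5 and 69.1% at P21. Its fitted change was 1.53 ± 0.39 (adjusted p = 0.0386), lost when E13.5, E15.5, E18.5 or P21 was left out.

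The hosts with the most extensions showed how several sites of 1 gene differed. Mpp6 had 235, 155, 342, 254, 287 and 327 tags at its 9 extensions beside 269, 269, 340, 142, 143 and 138 own tags. The share was lowest at E15.5, 36.6%, and highest at P21, 70.3% (66.0 to 74.3), with a fitted change of 1.91 ± 0.42 (adjusted p = 0.0202), lost when E13.5, E15.5, P6 or P21 was left out. Among its 9 sites, the one 1127 bases past the gene had a fitted log2 change in abundance of -0.89 ± 1.07, the one at 2290 bases 0.32 ± 0.49, the one at 4179 bases, whose sequence is printed above, 1.32 ± 0.40, and the farthest, at 9629 bases, 2.01 ± 0.73. Only the site at 4179 bases passed (adjusted p = 0.0449).

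Mau2, a loader of cohesin, had 7 extensions and shares of 51.0% to 62.2% with no trend (0.16 ± 0.34). Lzic had 6, all inside its RefSeq gene, and its share went from 65.3% to 85.6% (1.46 ± 0.41, adjusted p = 0.0551). Its 4 nearer sites had fewer tags at P21 than at E13.5, 157 and 114 at the strongest, and its 2 farther sites, which have another gene between them and the host, more, with 35 and 62 at the RefSeq end.

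Cells from beside the retina could bring 3′ ends of their own. Summed markers of the lens were at 307 to 5753 CPM, with E15.5 (4024) and P0 (5753) above the 307 to 1296 of the other libraries. Those of the pigment epithelium were at 93.1, 85.2, 54.8, 73.0, 199.8 and 365 CPM from E13.5 to P21, higher at P6 and P21 than before. The median extension share of the tested hosts was 8.62% at P0, 8.54% at P6 and 10.4% at P21. Red blood cell markers were at 976, 664, 202, 159.8, 241 and 421 CPM and those of mesenchyme at 250.2 to 496. Their part in the change of the share was not tested. None of the 42 markers measured for lens, red blood cells, pigment epithelium and mesenchyme around the eye was a host, against 10.5% of coding genes with a site. Extensions of other genes of these cells were not examined. Without the E15.5 and P0 libraries 217 hosts rose and 11 fell, and 179 of the 204 rising hosts still passed, a choice made after seeing the data. In whole retina, more cells of a type and more RNA per cell cannot be told apart.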

How the data were processed

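Poly(A)-site tags of C57BL/6J mouse retina were analysed at 6 stages with 1 sample each. Per the file headers, the deposited table holds counts of tags at each site (12 columns, 2 a stage) and an enrichment score; the authors' clustering, filters, duplicate handling and score are not given in the sources used here, nor is what separates the columns of a stage, which were added. BWA 0.7.5a-r405 and the build mm10 are named, per the submitters' processing notes.

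Sites were placed by their 3′ edge on GENCODE M21. The nearest gene was read as the one whose end lies closest upstream. Own sites lie in the host or within 1000 bases past it. The extensions of a host were summed and set against its own sites, and each own site against the rest of its gene, with edgeR 4.0.16 (R 4.3.3): quasi-likelihood F test on paired counts, terms for library, arm and arm by stage order, at least 20 tags in each arm and 120 in both. Site abundance used TMM and sites with a CPM of 1 in 2 libraries. P values were adjusted by Benjamini-Hochberg over the whole table. The SE is the change divided by the root of F. The tests were checked on simulated counts.

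Named hosts were the 8 largest rises and falls with 20 tags or more in every library, the 6 with most extension tags, the 4 with the highest share, up to 3 with the most extension tags in each of 12 gene lists, and the 3 with most sites. Members, lists and rules were chosen with earlier results of these data known. RefSeq models were matched by symbol or, failing that, by a synonym of a single symbol. Sequences came from GENCODE M21 transcripts and, for a few sites, from RefSeq promoter windows. Alternatives left out each library, used single columns, days in place of stage order, nearer members, members with no gene between, other filters, diffSpliceDGE and DESeq2 1.42.0. Alternatives chosen after seeing the data required the host end to be nearer than the next coding gene, left out members inside RefSeq genes, or left out E15.5 and P0. Some items are not reported here.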

Additional observations from a re-analysis of the deposited data

How the results depend on the processing

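The median fitted change stayed above 0 under every alternative, and no named host whose share had passed the test changed direction. Some named hosts that had not passed did, and none of them passed in the other direction. With each library left out in turn their fitted changes ranged from -0.48 to 0.90 for Cpsf6, -0.041 to 1.37 for Crx, -0.69 to 1.14 for Faxc, -0.27 to 5.16 for Gnat1, -0.044 to 0.51 for Hipk2, -0.16 to 0.43 for Mau2, -1.37 to 0.30 for Nutf2, -0.52 to 1.04 for Opn1sw and -0.59 to 0.67 for Slit1; the lowest came without P21 for Gnat1, Hipk2, Nutf2, Opn1sw and Slit1. Without E15.5 and P0 together the change was -0.68 for Faxc and -0.068 for Cpsf6. On the first columns it was 0.070 for Nutf2, -0.0084 for Faxc and -0.33 for Cpsf6, with days in place of stage order 0.58 for Nutf2, -0.080 for Faxc, -0.044 for Mau2, -0.26 for Crx and -0.59 for Cpsf6, and with members up to 5000 bases only -0.64 for Hipk2 and -0.26 for Cdk7. The counts of calls depend on single libraries, since 1 sample per stage leaves 4 residual degrees of freedom: with each library left out in turn, rising hosts ranged from 7 to 267 and falling hosts from 0 to 12, and sites that rose in abundance from 106 to 486 and that fell from 14 to 76. Of the 204 rising hosts, all that could be tested kept a change above 0 except 1 of 185, not among the named, when the host end had to be nearer than the next coding gene. Like the named hosts that had passed, they were selected by the main fit, and the alternatives reuse its counts. A kept direction is therefore no independent support. With the first columns alone 105 hosts rose and 7 fell, and with the second alone 6 fell and 29 sites fell. With members up to 5000 bases only, 131 rose and 5 fell, with 120 tags or more in each arm 132 and 4, and with no gene between 7 fell. With diffSpliceDGE 72 rose and 2 fell, with a median of 0.49, which is on its own scale, a feature against the whole gene. Among the named hosts, diffSpliceDGE lost the calls of Amph, Cd164, Fam71f2, Gucy2e, Hnrnpu, Hspa1b, Jmjd4, Mpp6, Nim1k, Pik3r2, Sag, Sarm1, Six3, Tenm3, Trpm1, Vamp1 and Wdr66, days in place of stage order those of Amph, Cd164, Hnrnpu, Jmjd4, Mpp6, Pik3r2, Tenm3 and Wdr66, the first columns those of Cd164, Hnrnpu, Sarm1, Tenm3, Vamp1 and Vps4a, and the second those of Cd164, Hnrnpu, Hspa1b, Pik3r2 and Six3. The call of Cd164 was also lost under every other choice of members, and that of Sarm1 without members inside RefSeq genes. Without the E15.5 and P0 libraries 30 sites fell. The alternative without sites before A-rich sequence was not run, since that sequence could be read for few members. No paired analysis was possible because each stage had 1 sample. Below about 3 tags a share cannot be told from 0, and most extensions have under 100 tags in all.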
